A study of Mus musculus with 21 samples.

Results

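Cassette exons are exons that a cell can either keep in a messenger RNA or leave out whole, by joining the exon before to the exon after. The events described here are the rows of the deposited splicing table annotated as cassette-exon, 7559 of 46443 splicing events (16.3%), in 2866 genes. The annotation chose them among the deposited events. Those had already been selected, and the smallest deposited spread of their splicing values between libraries was 0.15. Rows with a mixed annotation of a cassette exon and an alternative 3' site (42) or 5' site (30) were not counted as members. The RNA came from haematopoietic stem cells of the long-term kind (LT-HSC, 15 libraries) and of multipotent progenitors (MPP, 6 libraries, sorted as MPP3/MPP4), taken from the bone marrow of pooled mice. Whether replicates came from separate pools is not stated for every library, so p-values measure the spread between these samples, which may be technical. Batch 1 holds 3 libraries each of LT-HSC and MPP from Rxrabfl/fl animals (floxed controls without Cre) and of LT-HSC and MPP from VaviCre+Rxrabfl/fl animals (knockouts). Batch 2 has no MPP, and its LT-HSC comprise 3 libraries per group of Vav1Cre+WT (Cre controls without floxed alleles), Vav1Cre+Rxrabfl/fl (labelled knockouts), and Vav1Cre+Rxrabfl/fl with a further floxed allele on 1 chromosome that the titles name Mycl and the descriptions Myc (the Myc allele group). Cre is driven by the Vav1 promoter, which is active across blood cells, so the deletion is not limited to stem cells. Age, sex and strain are not given in the labels. Rxra and Rxrb encode retinoid X receptors, nuclear receptors that pair with other nuclear receptors.

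The spliceosome recognises the 2 ends of an exon with the help of RNA-binding proteins, which favour or hinder its use. Families such as RBFOX, MBNL, CELF and PTB bind short motifs near exons, and shifts in their amounts go with shifts of exon use during differentiation. Exons whose length is a multiple of 3 can be kept or skipped without shifting the reading frame. In blood, protein 4.1R (Epb41) is a classic case, since an exon of its spectrin- and actin-binding domain is taken up as red cell precursors mature, and RBFOX2 is known to promote its use.

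Each event compares an examined junction, where 2 exon ends are joined in a read, with a background junction. Its value is percent spliced in (PSI), here a fraction from 0 to 1. In 5417 events the examined junction enters or leaves the cassette exon, so a higher PSI means more inclusion. In 2103 events it is the long junction that skips the exon, so a higher PSI means less inclusion, and in 39 the direction could not be set from the coordinates. The table often lists the same pair of junctions in both directions, as it did for 1586 pairs of rows. Their 2 PSI summed to 1 within 0.01 in the median library for 99 pairs, and the median distance from 1 was 0.108, so the denominators hold other junctions as well and a PSI is not the share of 1 exon against its skipping alone. Rows of 1 gene share reads and are not independent. Zbtb20 alone had 17 rows and Macf1 16.

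Both ends of the exon were known for 1637 distinct exons, of 98 bases in the median (quartiles 69 and 139), and 840 of them (51.3%) had a length that is a multiple of 3. The letters around an exon could be read for a donor site in Irf9, whose product is a transcription factor of the interferon response, and it is shown because this site begins the intron after the exon that MPP skipped more often (below). It lies at chr14:55604545-55604567 (mm10, + strand, RefSeq sequence of GRCm38.p6), with the first 2 intron bases in capitals.
Irf9 donor: aaggagaagGTcagtaggctggg
All 76 donor ends of cassette events that fell inside RefSeq promoter windows were followed by GT, and all 26 acceptor ends there were preceded by AG, so the coordinates mark the last and first bases of exons.

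Libraries differed in how many cassette events had a value. In batch 1 and the Cre controls 1.5% to 5.6% of events had no PSI, and 6.3% to 10.2% of values were exactly 0 or 1. In the labelled knockouts of batch 2 the values at 0 or 1 made up 23.2%, 31.0% and 11.5% (replicates 4 to 6), and in the Myc allele group 14.9%, 41.0% and 18.9% (replicates 1 to 3). The spread between replicates went with this, with a median SD of PSI of 0.0474 to 0.0531 in the other 5 groups against 0.1004 in the labelled knockouts and 0.1225 in the Myc allele group. Read counts behind a PSI are unknown, so no interval for counting error can be given. The Rxra junctions of the labels' target gene were read in every library first. The junction that skips the Rxra exon starting at 27741764 on chromosome 2 (mm10) had a PSI of 0, 0.1 and 0 in floxed LT-HSC, 0.938 in knockout LT-HSC replicate 1 with no value in replicates 2 and 3, 0 in all floxed MPP, and 1 and 0.5 in knockout MPP replicates 1 and 3 with no value in replicate 2. In batch 2 it was 0 in all Cre controls, 0, 0.013 and 0 in the labelled knockouts, and 0.647, 0 and 1 in the Myc allele group. The libraries labelled knockout in batch 2, and replicate 2 of the Myc allele group, thus had PSI of at most 0.013 for skipping this Rxra exon, and they are called by their labels throughout. Cassette events of Rxrb and Mycl were not found in the table.

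**Figure D1:**
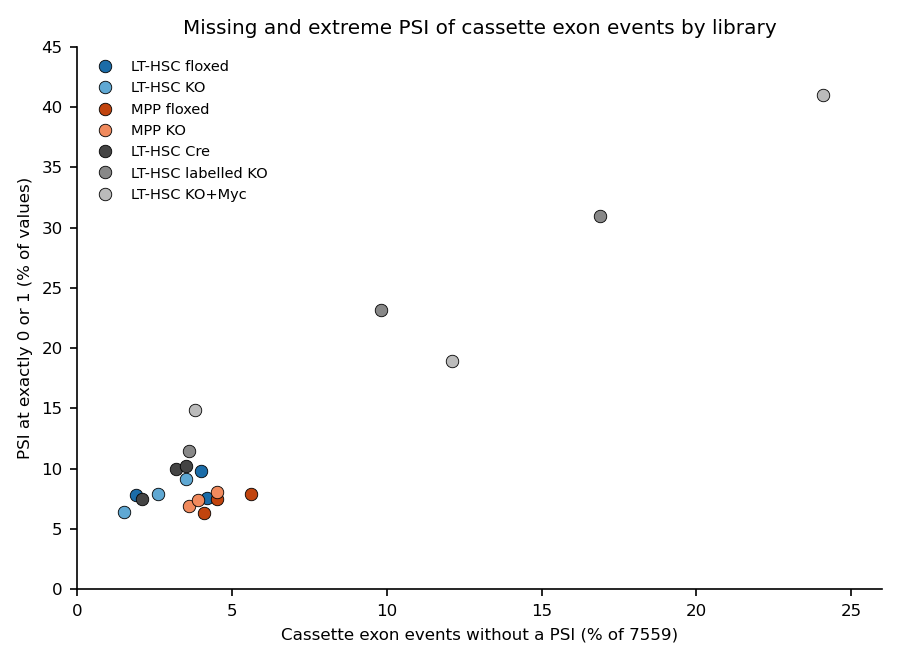
Each point is 1 library, placed by the percentage of cassette exon events without a PSI (x axis) and the percentage of its PSI at exactly 0 or 1 (y axis), coloured by group. The batch 1 and Cre control libraries lie together at the lower left, and replicate 2 of the Myc allele group lies farthest out, with 24.1% of events missing and 41.0% of values at 0 or 1.

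MPP kept cassette exons of 20 genes less often than LT-HSC of the same batch, among them Epb4.1l2, Epb4.1, Dst, Myo9b and Fmnl3, and kept those of 5 genes more often, led by Adam15. Over both genotypes of batch 1, 40 of 6484 tested cassette events passed, which took an adjusted p below 0.05 together with a shift of mean PSI by 0.1 or more. Over all 39715 splicing events tested 0.647% passed, against 0.617% of cassette events, so cassette events as a type passed at the background rate. Exon inclusion was lower in MPP in 30 of them, in 20 genes (0.463% of cassette events tested), and higher in 10, in 5 genes (0.154%). Of all cassette events tested, passed or not, inclusion was higher in MPP in 42.9%, with a median difference of -0.0079. Events of the alternative promoter type passed more often, at 4.7%, and retained introns at 0.6%. The labels' sample codes tie each MPP library to the LT-HSC library of the same number. With these pairs as a block in the fit, 0 of the 6484 cassette events passed (lowest adjusted p 0.0516, with 719 at an unadjusted p under 0.05), while all 40 events kept an unadjusted p under 0.05. With the pairs as a random effect, chosen after seeing the data, 50 passed, among them all 40. The share over all events in that fit is not given here.

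**Figure D2:**
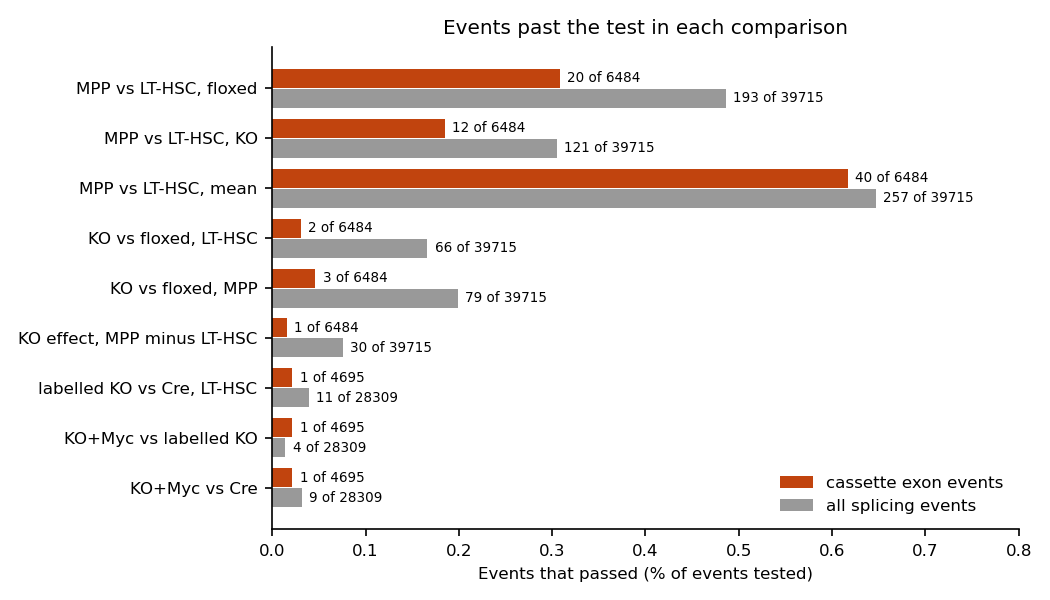
Bars give the percentage of tested events that passed in each of the 9 comparisons (x axis), for cassette exon events and for all splicing events, with counts beside each bar. Cassette events reach 0.617% in the comparison of MPP with LT-HSC over both genotypes and at most 0.0463% in the comparisons between genotypes within a cell type.

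The lowest p value over both genotypes among lowered exons belonged to Epb4.1l2 (current symbol Epb41l2), which encodes protein 4.1G, an adaptor between the membrane and the spectrin-actin skeleton. The examined junction joins 2 neighbouring alternative exons (chr10:25493629-25495445). Its PSI in LT-HSC was 0.291, 0.346 and 0.241 in floxed controls and 0.312, 0.421 and 0.381 in knockouts, against 0.033, 0 and 0 in floxed MPP and 0.058, 0.077 and 0.019 in knockout MPP. The 2 cell types did not overlap, as the rule for named events required of all genes outside the gene lists. The mean fell by 0.301 in MPP, from 0.332 ± 0.065 to 0.031 ± 0.031 (SD, n = 6 each; SE of the difference 0.026, limma adjusted p = 8.66e-04). The other 3 rows of the gene that passed moved the same way, and the deposited protein predictions place spectrin- and actin-binding and FERM parts in the longer protein. Its relative Epb4.1 (Epb41, protein 4.1R) changed likewise at a 63-base exon (chr4:131962924-131962986, - strand). Its inclusion ran from 0.141 to 0.342 in LT-HSC (median 0.251) and from 0.03 to 0.072 in MPP (median 0.048), so that it fell by 0.203 (SE 0.024, adjusted p = 0.00585). The TPM of Epb4.1 was 48.8 on average in LT-HSC of batch 1 and 21.7 in MPP. The splicing factor Rbfox2, known to promote this exon's use, was at 1.72 to 5.36 TPM in LT-HSC of batch 1 and 0.666 to 1.38 TPM in MPP, and its part in the result was not tested.

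Inclusion was also lower in MPP in Dst, Myo9b, Syne2 and Fmnl3. Dst, which encodes dystonin, a linker between filament systems, had PSI of 0.24 to 0.619 (median 0.497) in LT-HSC and 0 to 0.138 (median 0.07) in MPP for the junction between 2 of its alternative exons, a fall of 0.395 (SE 0.048, adjusted p = 0.00643). Dst was also lower as a whole, at 3.39 TPM in MPP against 9.00 in LT-HSC, so fewer of its transcripts stand behind the MPP values. Myo9b, an unconventional myosin, included a 48-base exon less often (chr8:71358616-71358663, + strand). Its inclusion was 0.333, 0.441 and 0.294 in floxed and 0.632, 0.571 and 0.298 in knockout LT-HSC, and 0.053, 0, 0, 0.107, 0.111 and 0.077 in MPP. Inclusion fell by 0.370 (SE 0.054, adjusted p = 0.0151), while the junction that skips the exon rose by 0.457 (SE 0.07, adjusted p = 0.0202). Syne2, which encodes nesprin-2 of the nuclear envelope, included a 69-base exon less often (chr12:76100028-76100096, + strand). Its inclusion ran from 0.156 to 0.5 in LT-HSC (median 0.328) and from 0 to 0.128 in MPP (median 0.068), a fall of 0.270 (SE 0.037, adjusted p = 0.012). Fmnl3, a formin that elongates actin filaments, followed in the skipping junction. Skipping of its 100-base exon was 0 in all 6 LT-HSC libraries of batch 1, and 0.349, 0.16, 0.312, 0.094, 0.192 and 0.125 in MPP (difference 0.206, SE 0.032, adjusted p = 0.0225). The deposited predictions name the autoregulatory DAD domain as altered by this exon.

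**Figure D3:**
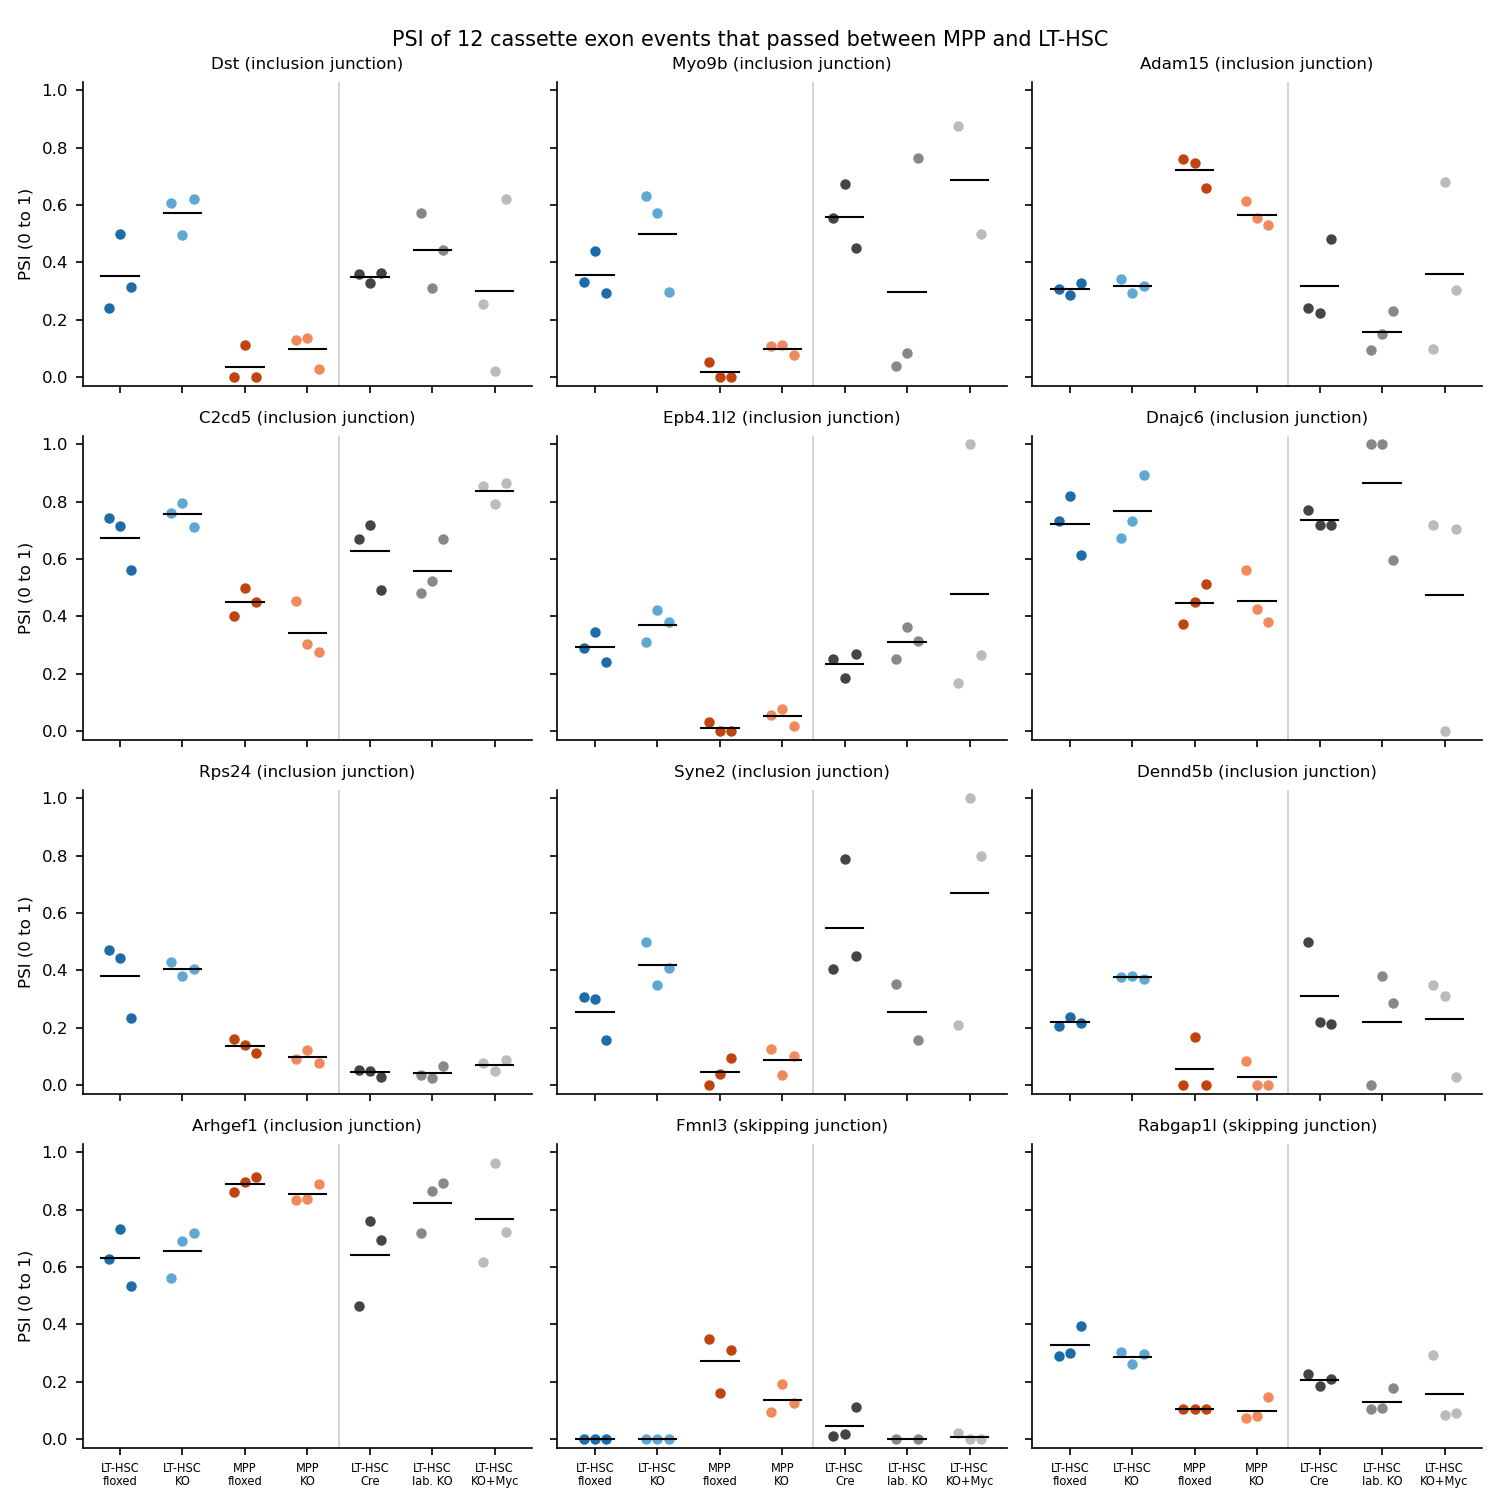
PSI (y axis, 0 to 1) of 12 cassette exon events that passed between MPP and LT-HSC, with a point for each library, a bar for each group mean and a grey line between batch 1 (left) and batch 2 (right). MPP sit apart from LT-HSC of batch 1 in every panel, as the rule for named events required of all genes outside the gene lists. The batch 2 Cre controls, which had no part in that choice, sit near LT-HSC of batch 1 for most genes but at or below MPP for Rps24.

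Dennd5b, C2cd5, Dnajc6 and Csnk1g3 were lower in inclusion as well. Dennd5b, which activates Rab GTPases, used a 66-base exon at a PSI of 0.206 to 0.381 (median 0.305) in LT-HSC, while 4 of the 6 MPP libraries were at 0 and the highest was 0.167 (difference -0.257, SE 0.032, adjusted p = 0.00657). C2cd5, a C2 domain protein of insulin-driven vesicle transport, fell from a mean of 0.714 to 0.397 (SE of the difference 0.042, adjusted p = 0.00966). Dnajc6, encoding auxilin, which strips clathrin from vesicles, fell at a 65-base exon from 0.744 to 0.450 (SE 0.053, adjusted p = 0.0455). Csnk1g3, a casein kinase 1, skipped a 24-base exon more often in MPP, at 0.48 to 0.602 against 0.302 to 0.419 (adjusted p = 0.0268).

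Mbnl1, Bptf, Rps24 and Irf9 were the other named genes with lower inclusion in MPP. Mbnl1, itself a splicing regulator, joined an upstream alternative exon less often in MPP. The PSI of this inclusion junction was 0.513 to 0.573 (median 0.55) in LT-HSC and 0.292 to 0.414 (median 0.33) in MPP, a fall of 0.203 (SE 0.019, adjusted p = 0.00148), and the junction that skips the exon rose by 0.151 (adjusted p = 0.00733). The TPM of Mbnl1 was 108 in LT-HSC of batch 1 and 107 in MPP. In the Cre controls of batch 2, however, the inclusion junction was at 0.416, 0.308 and 0.388, closer to MPP than to LT-HSC of batch 1. Bptf, a subunit of the NURF chromatin remodeller, included a 189-base exon at 0.251 to 0.333 in LT-HSC and 0.107 to 0.182 in MPP (difference -0.142, SE 0.017, adjusted p = 0.00599). Rps24, a ribosomal protein gene with many processed copies in the genome to which reads can also align, fell from a mean of 0.393 to 0.117 (adjusted p = 0.012), but its PSI was 0.053, 0.051 and 0.03 in the Cre controls of batch 2, below all MPP. Irf9 skipped its exon more often in MPP, at 0.469 to 0.682 (median 0.581) against 0.321 to 0.426 (median 0.404), a difference of 0.177 (SE 0.026, adjusted p = 0.0182), and the Cre controls were higher still at 0.711, 0.836 and 0.804.

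The exons that MPP kept more often were led by Adam15, a membrane-bound metalloprotease with binding sites for signalling proteins in its cytoplasmic tail. The junction into its first alternative exon (chr3:89340937-89341508, - strand) had a PSI of 0.307, 0.286 and 0.328 in floxed and 0.343, 0.292 and 0.316 in knockout LT-HSC. In MPP it was 0.759, 0.745 and 0.659 in floxed controls and 0.612, 0.554 and 0.531 in knockouts, apart from LT-HSC of batch 1 as the rule for named events required. It rose by 0.332 (SE 0.024, adjusted p = 3.16e-04), and the 4 Adam15 rows that passed all moved toward inclusion. The deposited predictions place the added residues in the cytoplasmic part. Rabgap1l, an inactivator of Rab GTPases, had 3 rows that passed. The junction that skips its exon ran from 0.263 to 0.393 in LT-HSC and from 0.073 to 0.146 in MPP (difference -0.205, SE 0.023, adjusted p = 0.00418). Arhgef1, a guanine nucleotide exchange factor, rose in inclusion from a mean of 0.645 ± 0.083 to 0.873 ± 0.033 (SD, n = 6 each; SE of the difference 0.038, adjusted p = 0.0311). Smaller shifts toward inclusion were a fall in skipping by 0.109 in Ociad1 (adjusted p = 0.034) and by 0.104 in Brip1, a DNA repair helicase (adjusted p = 0.0323). Rows of 6 further genes passed but fell outside the rule for named events, and they are named here after their values were seen, namely Irf1, Cep350, Cobll1, Cenpt, Ifi203 and Ppp4r1l-ps. Of the 22 events named over both genotypes, 14 passed in every fit without 1 library. The others lost the call without 1 or more libraries, with highest adjusted p of 0.0981 for Dnajc6, 0.081 for Ociad1, 0.0782 for Brip1, 0.075 for Arhgef1, 0.0697 for the second Rps24 row, 0.0689 for Csnk1g3, 0.0607 for Fmnl3 and 0.0532 for skipping in Myo9b.

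Among the exons with known ends that passed, 7 of 10 had a length that is a multiple of 3, beside 51.3% of all cassette exons. The gene lists were chosen with earlier results of these data known, so their shares cannot show that a type of gene is favoured. For all cassette events tested, 0.617% passed and 758 of 6484 (11.7%) had an unadjusted p under 0.05. Of 40 trafficking and cytoskeleton genes 28 had a cassette event, and 6 of 119 tested events passed (Arhgef1 higher, and Dst, Epb4.1, Fmnl3 and Myo9b lower in inclusion), with a median absolute difference of 0.0609 beside 0.0355 over all cassette events. Of 126 tested events in splicing regulators 2 passed, both in Mbnl1. Of 79 in enzymes and signalling genes 3 passed, all lower in inclusion (Csnk1g3 and Rps24), and of 113 in chromatin and transcription genes 1 passed (Bptf). Of 55 in blood cell regulators and surface proteins 0 passed by limma, with 10 at an unadjusted p under 0.05.

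The sorted cells matched their labels, with summed TPM of 8 MPP markers of 1300 to 2310 in MPP against 43.2 to 178 in LT-HSC of batch 1, and of 10 LT-HSC markers of 134 to 201 against 304 to 879. B cell markers moved with the cell type as well. Their 8 genes summed to 2160 to 11700 TPM in floxed MPP, 735 to 6030 in knockout MPP, 10.4 to 217 in floxed LT-HSC and 365 to 892 in knockout LT-HSC. None of the 8 was at 0 in all libraries of these groups. Summed erythroid markers were lower in MPP, at 111 to 166 TPM against 265 to 683 in LT-HSC of batch 1. Fewer cells of a type and less RNA per cell cannot be told apart in these bulk samples, and the part of other cell types in the PSI differences was not tested.

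Read within each genotype, the cell type comparison had fewer events. In floxed controls 20 of 6484 cassette events passed (0.486% of all events passed), 12 lower (0.185% of cassette events tested) and 8 higher (0.123%) in inclusion in MPP. In knockouts 12 passed (0.305% of all events passed), 9 lower (0.139%) and 3 higher (0.0463%). With the paired libraries as a block 0 passed in either genotype (lowest adjusted p 0.0806 in floxed controls and 0.0987 in knockouts, with 638 and 539 events at an unadjusted p under 0.05). The genotypes are separate libraries, so the PSI differences of events chosen in 1 can be read in the other. Both comparisons share 1 estimate of the spread, so a p-value read in the other genotype is not independent of the choice. Of the 20 events from floxed controls 16 had the same sign in knockouts and 12 had it with an unadjusted p under 0.05, with the median difference going from 0.242 to 0.101. Of the 12 from knockouts all 12 had the same sign in floxed controls, 11 with an unadjusted p under 0.05, and the median went from 0.303 to 0.225. Over 6402 cassette events the sign was shared in 56.7%. In both genotypes 4 events passed, in Adam15 (2 rows), Epb4.1l2 and Mbnl1.

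**Figure D4:**
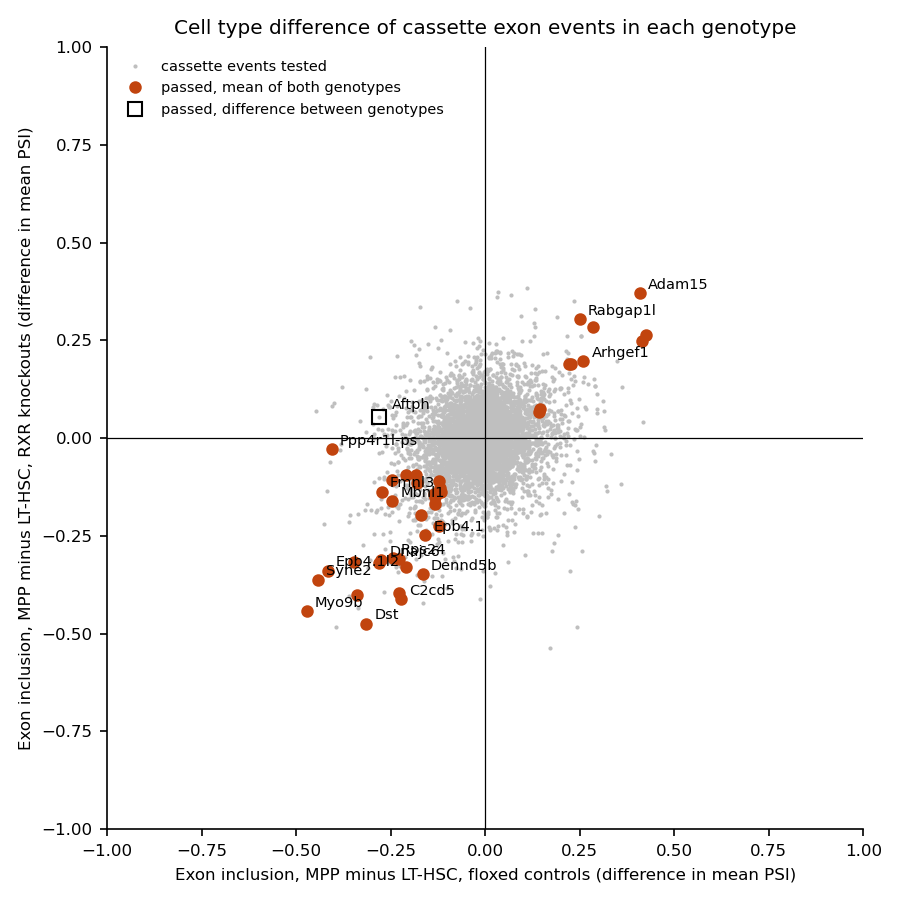
Each point is a tested cassette exon event, placed by the difference in mean PSI between MPP and LT-HSC in floxed controls (x axis) and in knockouts (y axis), signed so that positive values mean more inclusion in MPP. Filled circles are the 40 events that passed over both genotypes, most of them along the diagonal, and the open square is Aftph, which passed the test of the difference between genotypes.

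Several events passed in floxed controls with little difference in knockouts. Skipping in Myo5a, a vesicle motor, was 0.188, 0.195 and 0.191 in floxed LT-HSC and 0.035, 0.061 and 0.087 in floxed MPP (difference -0.130 at an 81-base exon, adjusted p = 0.0445), but 0.091, 0.075 and 0.058 in knockout LT-HSC and 0.067, 0.043 and 0.075 in knockout MPP. Inclusion in Slc25a36, a mitochondrial carrier, was 0.679, 0.789 and 0.754 in floxed MPP and 0.902 to 0.988 in knockout MPP, with all LT-HSC of batch 1 between 0.913 and 0.989 (difference in floxed controls -0.213, adjusted p = 0.0387). Ifih1, a sensor of viral RNA, was at 0.822, 0.651 and 0.761 in floxed MPP and 0.962 or higher in the other groups of batch 1 (difference in floxed controls -0.237, adjusted p = 0.0362). In the other direction, skipping in Ahctf1, a nuclear pore assembly factor, was 0.727, 0.662 and 0.748 in knockout MPP and 0.929 to 0.977 in knockout LT-HSC (difference -0.243, adjusted p = 0.0491). The calls in Ahctf1, Myo5a, Slc25a36 and Ifih1 were each lost without 1 of several libraries, with adjusted p of up to 0.14, 0.116, 0.116 and 0.1. The difference between genotypes was tested for all events and, of these 20 and 12 events, passed for Aftph alone.

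Few cassette events differed between knockouts and floxed controls. In LT-HSC of batch 1 they were 2 of 6484 (0.166% of all events passed). Cux1, a homeobox transcription factor gene, had an inclusion PSI of 0.581, 0.557 and 0.497 in floxed controls and 0.743, 0.761 and 0.776 in knockouts, with no overlap. It rose by 0.215 (SE 0.032, adjusted p = 0.0454), but in batch 2 the libraries labelled knockout were at 0.323, 0.504 and 0.357 and the Cre controls at 0.456, 0.583 and 0.533, a difference in the other direction that did not pass. Ppp4r1l-ps, a transcribed pseudogene, fell by 0.326, from 0.545, 0.5 and 0.619 to 0.25, 0.25 and 0.188 (SE 0.048, adjusted p = 0.0454). Both calls were lost without any of the floxed LT-HSC libraries and without knockout replicate 2 or 3 (adjusted p of up to 0.106 for Cux1 and 0.112 for Ppp4r1l-ps). The floxed LT-HSC libraries also enter the comparison with floxed MPP, where both genes passed as well, so these calls share samples. Floxed controls lack Cre, so Cre itself and loss of the receptors cannot be told apart between the genotypes of batch 1. Most marker sums moved with genotype in these LT-HSC without overlap, and only those of T and NK cell and of erythroid markers overlapped. From floxed controls to knockouts the 8 neutrophil markers went from 35.3 to 59.7 TPM up to 128 to 1270 TPM (5 and 7 of the 8 at a mean of 1 TPM or more), the 8 monocyte, macrophage and dendritic cell markers from 102 to 190 up to 248 to 278 TPM (2 and 5 of 8, with Adgre1 at 0 in all floxed controls), the 8 B cell markers from 10.4 to 217 up to 365 to 892 TPM (2 and 3 of 8), and the 10 LT-HSC markers from 304 to 558 up to 708 to 879 TPM (10 of 10 in both). Their part in the 2 events was not tested.

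In MPP 3 of 6484 cassette events passed between genotypes (0.199% of all events passed), and in each the floxed MPP stood apart from all other groups of batch 1. Mycbp2, a large ubiquitin ligase, had an inclusion PSI of 0.807, 0.865 and 0.795 in floxed MPP and 1, 0.992 and 0.985 in knockout MPP, with LT-HSC of batch 1 at 0.965 to 0.988 (difference 0.170, SE 0.024, adjusted p = 0.0309). Skipping in Spag9, a scaffold of JNK signalling and transport, was 0.776, 0.802 and 0.81 in floxed MPP and 0.912, 0.96 and 0.965 in knockout MPP (difference 0.15, SE 0.023, adjusted p = 0.0446). Aftph, a clathrin-associated protein, had an inclusion PSI of 0.686, 0.626 and 0.679 in floxed MPP and 0.833, 0.849 and 0.943 in knockout MPP (difference 0.211, SE 0.032, adjusted p = 0.0438). Aftph values in LT-HSC of batch 1 were 0.94, 0.941 and 0.951 in floxed controls and 0.808, 0.835 and 0.824 in knockouts, the opposite order. In LT-HSC of batch 2 they were 0.917, 0.967 and 0.942 in Cre controls and 0.988, 1 and 1 in the libraries labelled knockout. That difference, in the other direction, did not pass. In batch 1 the knockout effect in MPP minus that in LT-HSC was 0.333 (SE 0.045, adjusted p = 0.0412). Aftph was the only 1 of 6484 cassette events to pass this test (0.0755% of all events passed). Without 1 library the 3 MPP calls reached adjusted p of up to 0.083 (Mycbp2, lost without floxed replicate 1 or knockout replicate 2 or 3), 0.118 (Spag9, lost without floxed replicate 1 or 2 or knockout replicate 2 or 3) and 0.0821 (Aftph, lost without floxed replicate 1 or 2 or knockout replicate 2). The Aftph difference between cell types was lost in 8 of 12 such fits, at up to 0.115, and its adjusted p was 0.392 with the paired libraries as a block. Some marker sums moved with genotype in these MPP. The 8 neutrophil markers summed to 42.9 to 210 TPM in floxed and 270 to 806 TPM in knockout MPP (4 and 6 of the 8 at a mean of 1 TPM or more), and the 8 monocyte, macrophage and dendritic cell markers to 148 to 159 and 192 to 250 TPM (7 of 8 in both), without overlap and with none at 0 throughout a group. The 7 endothelial and stromal markers also rose without overlap, from 27.1 to 33.7 TPM in floxed up to 35.3 to 43.4 TPM in knockout MPP. The sums of the other lists overlapped, those of the B cell markers given above among them. The part of these cells in the 3 MPP events was not tested.

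**Figure D5:**
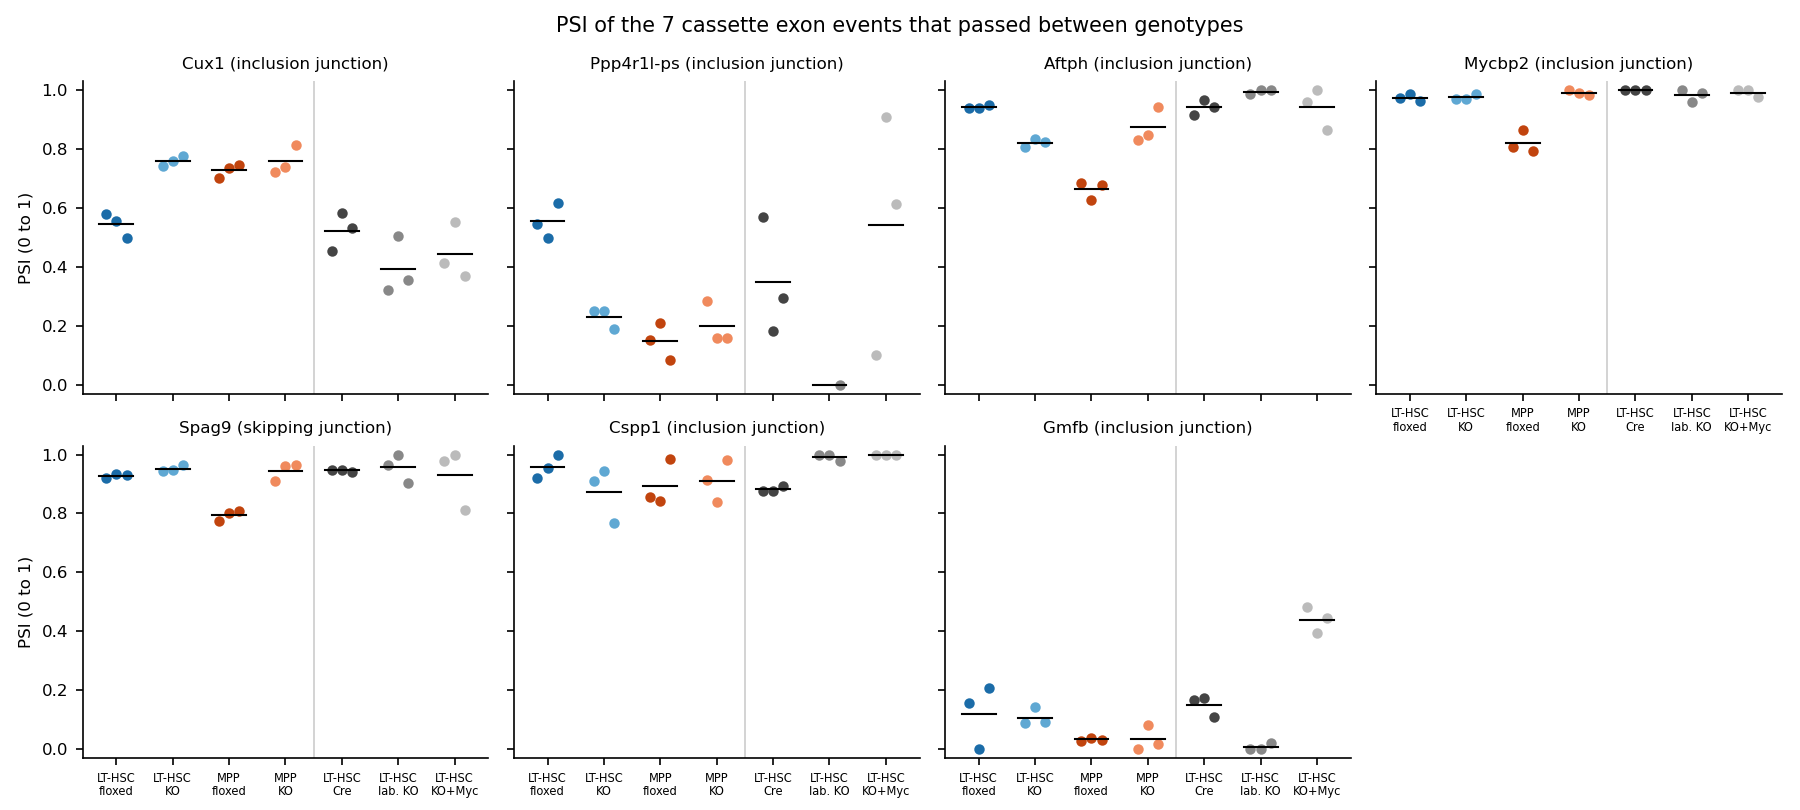
PSI (y axis, 0 to 1) of the 7 cassette exon events that passed between genotypes, with a point for each library, a bar for each group mean and a grey line between batch 1 and batch 2. Floxed MPP lie below all other groups of batch 1 for Aftph, Mycbp2 and Spag9, and the Myc allele group lies above all other groups for Gmfb.

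Batch 2 allowed fewer tests, since 2864 of the 7559 cassette events lacked a value in at least 1 of its libraries, against 1075 in batch 1. Of 4695 events 1 passed between the libraries labelled knockout and the Cre controls (0.0389% of all events passed), 1 between the Myc allele group and the Cre controls (0.0318%), and 1 between the Myc allele group and the libraries labelled knockout (0.0141%). The first 2 were the same event in Cspp1, a centrosome and cilium gene. Its inclusion PSI was 0.875, 0.878 and 0.894 in Cre controls, 1, 1 and 0.978 in the libraries labelled knockout, and 1 in all 3 of the Myc allele group (differences 0.111 and 0.118, adjusted p = 0.0142 and 0.0159). These 2 comparisons share the Cre controls, both calls were lost without Cre control replicate 4 or 5 (the second also without Myc allele replicate 3; adjusted p of up to 0.0747 and 0.0758), and values at exactly 0 or 1 made up 11.5% or more in each library of these 2 groups against 7.5% to 10.2% in the Cre controls. In LT-HSC of batch 1 Cspp1 inclusion was 0.921, 0.956 and 1 in floxed controls and 0.911, 0.943 and 0.767 in knockouts. That difference, in the other direction, did not pass. The third call of batch 2 was Gmfb, whose product remodels branched actin. Its inclusion PSI was 0.482, 0.394 and 0.444 in the Myc allele group, 0, 0 and 0.02 in the libraries labelled knockout, and 0.167, 0.172 and 0.108 in the Cre controls (difference 0.434, SE 0.026, adjusted p = 0.0103, and 0.0607 without Myc allele replicate 3). The Myc allele group lay above all other libraries of the series. The Myc gene itself had 1 cassette event with an inclusion PSI of 0.761, 1 and 0.736 in the Myc allele group and 0.976 or higher in all other libraries, a difference that did not pass. Without replicate 1 of the Myc allele group 46 events passed against the libraries labelled knockout, so the count rests on which libraries enter. The share over all events in that fit is not given here, so the count does not set cassette events apart.

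The Cre controls of batch 2 are LT-HSC that did not enter the comparison with MPP. For 30 of the 40 cassette events that passed (75%) their mean PSI lay nearer to LT-HSC of batch 1 than to MPP, and for 24 all 3 libraries lay beyond the MPP range on the LT-HSC side. The share nearer to LT-HSC was 80.9% for the other types of event that passed (165 of 204) and 55.8% for all cassette events tested. All 3 libraries lay beyond the MPP range for 115 of those 204 events and for 699 of 6361 cassette events tested. The 10 events on the MPP side were in Irf9, Irf1, Rps24 (2 rows), Mbnl1 (2 rows), Rabgap1l (1 of 3 rows), Cep350, Cobll1 and Ifi203 (1 of 2 rows), named after their values were seen. Batch and the absence of floxed alleles cannot be told apart in these libraries, and beside the floxed controls of batch 1 neither can the presence of Cre.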

How the data were processed

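Splicing values are the PSI the authors deposited, a fraction of 0 to 1 for each event, and expression values are the TPM the authors deposited. Per the submitters' processing notes STAR 2.6, kallisto and the mouse build mm10 were used. For the event caller, the PSI formula and the read minimum nothing is given in the sources used here, and the deposited events were already selected (smallest deposited spread 0.15). Per the labels' protocols RNA of 5 ng was amplified per library and sequenced as read pairs. The depth behind a PSI is unknown.

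PSI was fitted with limma 3.58.1 (R 4.3.3) over all events with a value in every library of a batch, 12 libraries in batch 1 and 9 in batch 2, with Benjamini-Hochberg adjustment over all events. Cassette rows were then read out. Events passed where the adjusted p was below 0.05 and mean PSI moved by 0.1 or more. Named events are, for each comparison, the 12 largest differences in each direction of inclusion, 1 event a gene (that with its lowest p, not its largest difference), at 5 TPM or more in both groups and without overlap, plus members of the gene lists that passed. The members and lists were chosen with earlier results of these data known. Direction was set from coordinates, and exon lengths only for exons of up to 500 bases with both ends known. Methods were tested on simulated data. LT-HSC and MPP of 1 number share a sample code in the labels' descriptions and were taken as pairs, although their deviations correlated only between -0.043 and 0.118. Python 3.11.15 with matplotlib 3.10.9 drew the figures.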

Additional observations from a re-analysis of the deposited data

Results flagged for a closer look

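Floxed LT-HSC replicate 3 stood apart from the other 5 LT-HSC libraries of batch 1 in 2 events. Its PSI for skipping in Rabgap1l was 0.393, with the others at 0.263 to 0.304, and its inclusion PSI in C2cd5 was 0.561, with the others at 0.712 to 0.796. Of the 44 groups of 6 libraries examined, chance alone gives such a gap in about 1 group in 20. The effect of the knockout on inclusion in Aftph differed between MPP and LT-HSC of batch 1 by 0.333 in PSI. Inclusion there was higher in knockout than in floxed MPP and lower in knockout than in floxed LT-HSC in every library. In batch 2 the Aftph inclusion of LT-HSC labelled knockout lay above that of the Cre controls.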

How the results depend on the processing

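The values of this paragraph are counts of cassette events that passed. They are given without the share over all events in the same fits, so they do not set cassette events apart from other types. Between MPP and LT-HSC, over both genotypes, the 40 events became 26 at a minimum difference of 0.2 and 0 with the replicate block. In floxed controls the 20 became 13 with only the groups compared, 13 with a robust variance and 0 with the replicate block, and in knockouts the 12 became 3 with only the groups compared and 0 with the replicate block. Between knockout and floxed LT-HSC the 2 became 4 on the logit scale, 4 with only the groups compared, 0 for genes of at least 10 TPM, 0 with a robust variance and 1 with the replicate block. In MPP the 3 became 1 at 10 TPM, 1 at a difference of 0.2, and 0 with only the groups compared, a robust variance or the replicate block. The difference of the knockout effect went from 1 to 3 on the logit scale and to 0 with a robust variance or the replicate block. In batch 2 the 1 event of the labelled knockout against the Cre control became 3 on the logit scale, 2 with at least 2 values per group, and 0 with only the groups compared, at a difference of 0.2 or with the replicate block. That of the Myc allele against the labelled knockout became 3 with at least 2 values per group and 0 with only the groups compared, and that of the Myc allele against the Cre control became 2 on the logit scale, 3 with at least 2 values per group, 2 at 10 TPM, 2 with only the groups compared and 0 at a difference of 0.2. Between genotypes within a cell type the replicate block rests on a shared number only, since the sample codes differ. There the deviations of same-numbered libraries correlated at -0.011 to 0.047, and what a call lost under this block means was not tested. The Myc allele group shares no numbers with the other groups of batch 2 and was fitted without such a block. With each library left out in turn the counts ran from 30 to 58 (both genotypes), 11 to 26 (floxed), 4 to 16 (knockout), 0 to 10 (LT-HSC genotypes), 0 to 10 (MPP genotypes), 0 to 3 (difference of effects), 0 to 11 (labelled knockout), 0 to 46 (Myc allele against labelled knockout) and 0 to 53 (Myc allele against Cre control). No named event changed sign in any of these fits. The cause of each change was not tested. The unknown read depth of each PSI limits all of these calls.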
